A study of Mus musculus with 8 samples.

Results

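The genes described here are the 10 core genes of mitochondrial fusion and fission, namely Mfn1, Mfn2, Opa1, Oma1, Yme1l1, Dnm1l, Fis1, Mff, Mief1 and Mief2. They were chosen by name, and the ATAC-seq peaks that belong to them were taken as every peak summit inside the body of one of these genes or within 50 kb of the transcription start site (TSS) of one of its RefSeq mRNAs. This gave 48 of the 32173 summits in the list, at 10 of the 21000 genes of the annotation. The summits came from ATAC-seq of mouse brown adipose tissue (BAT), an assay in which the Tn5 transposase cuts DNA that is not wrapped around nucleosomes, so that reads pile up over open chromatin. There were 2 WT and 2 Dot1L-BKO ATAC-seq libraries. All mice were 12 weeks old, had been fed chow and were placed at 4°C for 4 hr before the tissue was taken, so that none of the libraries came from a warm control. Dot1L-BKO mice carry floxed Dot1l alleles and a Cre driven by the Ucp1 promoter, and the WT mice were floxed animals without the Cre. The cross is therefore designed to remove Dot1l, the H3K79 methyltransferase, in Ucp1+ cells of the tissue only. Vascular, immune and precursor cells of the same BAT should keep it by this design, and the loss by cell type was not measured here.

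The deposited file was a single list made from the 4 libraries. For each peak it gave the summit, which is the highest point, and the −log10 of the MACS2 q-value, called the score below. It gave no value for any single library, so that read depth was unknown, the spread between the 2 mice of a genotype could not be computed and no difference between WT and Dot1L-BKO mice could be tested. The description of the file sets WT against Dot1L-BKO libraries, and whether either genotype was used as the MACS2 control is not known here. If one genotype served as the control, each peak and score would stand for signal of the other genotype in excess of it, and if neither did, for open chromatin in the tissue. These readings cannot be told apart from the list, and this holds for every peak and score below. A score measures how surely a peak stood out in that call and not how open the site was in one mouse or in one cell type.

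Mitochondria fuse and divide continuously. Mfn1 and Mfn2, GTPases of the outer membrane, tether and fuse the outer membranes of neighbouring mitochondria, and Opa1, a GTPase of the inner membrane, fuses the inner membranes and shapes cristae. The inner membrane proteases Oma1 and Yme1l1 cut long Opa1 into short forms. Division is carried out by Dnm1l, also called Drp1, a cytosolic GTPase that assembles into rings around the mitochondrion after it is recruited by outer membrane receptors, namely Mff, Mief1 (MiD51), Mief2 (MiD49) and Fis1. In brown adipocytes, mitochondria are known to divide when noradrenaline activates the cells, as it does in the cold.

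A peak at the promoter was found for all of the 10 genes. A promoter summit below is one that lies at most 1 kb from a TSS. The scores of the strongest one per gene ran from 9.21 at Mfn1 to 32.5 at Mief1, with a median of 17.0. Among all 21000 genes, 9485 or 45.2% had a promoter summit (95% Wilson interval 44.5 to 45.8, for counting error only). The median of their strongest scores was 10.7. A score of at least 10 was reached by 8 of the 10 genes, against 23.5% of all genes and 52.1% of the genes that had a promoter summit at all. The 2 genes below it were Mfn1 and Opa1. The members were picked by name with earlier results of these data known, so these shares are given side by side with no test. In the plot of promoter scores, 8 genes lie above the median of all genes with a promoter summit and 2 of these, Yme1l1 and Mief1, above the upper quartile of 20.9.

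**Figure D1:**
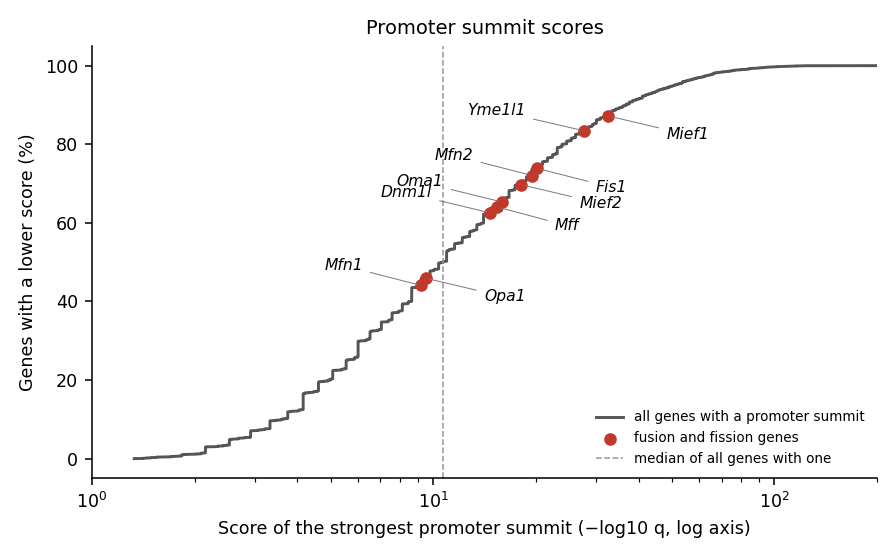
Score of the strongest promoter summit (−log10 q, log axis) against the percent of genes with a promoter summit whose score is lower. The grey line is all 9485 such genes, the dashed line is their median of 10.7 and red points are the 10 fusion and fission genes. Mfn1 and Opa1 are left of the median, and Yme1l1 and Mief1 are highest.

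Promoter sequences are printed for the genes with the 2 highest and the 2 lowest scores, in windows set on the TSS and not on the summit. Each is 230 bases of the mm10 reference (RefSeq GRCm38) on the strand of the gene, with 200 bases before the TSS and 30 from the TSS on, so that the TSS is base 201. Capitals mark matches, on either strand, to short motifs that SP and KLF factors (GGGCGGG), ETS factors (CCGGAAG) and NRF1 (GCATGCGC) are known to bind. A match is a description of the letters and not a bound site. The windows are Mief1 at chr15:80233880-80234109, plus strand, Yme1l1 at chr2:23156305-23156534, plus strand, Mfn1 at chr3:32529282-32529511, plus strand, and Opa1 at chr16:29579134-29579363, plus strand.
Mief1: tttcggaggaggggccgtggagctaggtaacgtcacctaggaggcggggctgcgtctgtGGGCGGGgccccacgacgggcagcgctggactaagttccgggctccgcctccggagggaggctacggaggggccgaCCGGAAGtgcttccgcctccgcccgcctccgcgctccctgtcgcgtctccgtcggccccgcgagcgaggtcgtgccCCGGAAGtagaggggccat
Yme1l1: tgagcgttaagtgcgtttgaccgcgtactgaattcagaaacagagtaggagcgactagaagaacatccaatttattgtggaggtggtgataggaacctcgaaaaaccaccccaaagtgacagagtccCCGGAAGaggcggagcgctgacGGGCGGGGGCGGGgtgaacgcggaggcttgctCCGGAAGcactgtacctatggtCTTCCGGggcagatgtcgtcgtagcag
Mfn1: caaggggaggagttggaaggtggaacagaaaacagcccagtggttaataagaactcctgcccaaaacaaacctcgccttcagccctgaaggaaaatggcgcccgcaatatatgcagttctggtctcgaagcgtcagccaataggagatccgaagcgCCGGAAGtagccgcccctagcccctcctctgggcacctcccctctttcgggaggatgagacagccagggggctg
Opa1: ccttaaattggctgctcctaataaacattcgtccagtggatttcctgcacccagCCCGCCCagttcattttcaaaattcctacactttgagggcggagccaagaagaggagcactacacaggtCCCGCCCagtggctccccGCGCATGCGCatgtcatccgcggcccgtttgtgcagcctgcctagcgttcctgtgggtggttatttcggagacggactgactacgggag
Both of the highest scoring promoters held GGGCGGG together with more than 1 copy of CCGGAAG, 2 in Mief1 and 3 in Yme1l1. Mfn1 held CCGGAAG once and no GGGCGGG, and Opa1 held GGGCGGG at 2 places and no CCGGAAG. The motifs did not follow the scores over all of the genes. Fis1, next in score at 20.17, held the same as Mfn1, and Mfn2, after it at 19.45, held neither. The matches to GCATGCGC in Opa1 are a pair on opposite strands that overlap to read GCGCATGCGC.

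The outer membrane fusion genes differed from each other in their promoter scores and in how many peaks surrounded them. Mfn1 (gene 67414; chr3:32529482-32579225, plus strand) has a single annotated TSS. Its promoter summit lay 26 bp downstream of the TSS, in the 5′ UTR of exon 1, with a score of 9.21, and 44.1% of genes with a promoter summit scored lower. No other summit lay in the 49744 bp of the gene. The nearest neighbour with a promoter summit was Zfp639, whose TSS is 18890 bp away and whose score of 22.5 was above that of Mfn1 itself.

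Mfn2 (gene 170731; chr4:147873586-147904909, minus strand) had 13 summits at its locus, more than any of the other 9 genes. Of these, 3 lay within 1 kb of the TSS of a neighbour, and 5 lay outside the gene over 1 kb from any TSS. There were 4 other mRNA genes with a TSS within 50 kb. The promoter summit had a score of 19.4, higher than 72.0% of promoter summits, and lay 39 bp upstream of the nearest of 3 annotated TSSs. The same point lies in the 5′ UTR of exon 1 of the mRNA that starts farthest upstream. Another summit 466 bp upstream scored only 2.54. A stronger one, 1510 bp upstream in intergenic DNA, had a score of 17.4 and ranked 3738 among all summits, close to the promoter summit at rank 3135. It was the only one of the 22 summits of the 10 loci lying over 1 kb from every TSS that reached a score of 10. Inside the gene there were weak summits in intron 3 (score 4.16), intron 15 (1.42) and the 3′ UTR of exon 19 (2.53).

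The 201 bases centred on the upstream Mfn2 summit, chr4:147906319-147906519 on the minus strand, are printed because they are the strongest site of the 10 genes away from a promoter. Capitals mark the AP-1 motif, searched as TGANTCA on both strands.
Mfn2 upstream summit: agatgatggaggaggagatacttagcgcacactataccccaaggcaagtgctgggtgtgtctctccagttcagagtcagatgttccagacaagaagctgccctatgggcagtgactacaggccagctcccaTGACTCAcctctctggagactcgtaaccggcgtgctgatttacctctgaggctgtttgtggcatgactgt
The window held 1 match, written TGACTCA, which AP-1 factors of the FOS and JUN families are known to bind. The same motif was present in 7.68% of the 21798 windows of 201 bases centred on summits over 1 kb from a TSS, and in none of the 10 promoter windows. No GGGCGGG and no CCGGAAG were present in it.

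Opa1 (gene 74143; chr16:29579334-29654602, plus strand) had a promoter summit 20 bp downstream of its only TSS, in the 5′ UTR of exon 1, with a score of 9.50. This was higher than 45.9% of promoter summits, so that Opa1 and Mfn1 were close to each other and just under the median gene with a promoter summit. The only other summit of the locus was in intron 1, 3830 bp downstream of the TSS, with a score of 6.93. It scored above both intronic summits of Mfn2.

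The proteases that cut Opa1 had a single summit each, with scores above the promoter scores of Mfn1 and Opa1. Only that of Yme1l1 was above the promoter score of Mfn2. Oma1 (gene 67013; chr4:103313846-103366428, plus strand), the protease that is switched on by mitochondrial stress, had a single summit, 126 bp upstream of the TSS, with a score of 15.9. The next summit in the list was 199293 bp from the TSS, farther away than for any of the other 9 genes. Yme1l1 (gene 27377; chr2:23156505-23199260, plus strand), the protease that cuts Opa1 in unstressed mitochondria, also had a single summit, with a score of 27.7 at 152 bp upstream. That promoter is shared. The TSS of Mastl, a mitotic kinase, lies 481 bp away on the opposite strand, and the same summit lies within 1 kb of it, at −329 bp, so that the peak cannot be given to 1 of the 2 genes. Of the 10 strongest promoter summits this one was the farthest from its TSS.

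Dnm1l (gene 74006; chr16:16312228-16359031, minus strand), the fission GTPase, had 1 summit in all. It lay 81 bp downstream of the TSS in the 5′ UTR of exon 1, with a score of 14.7 that was higher than 62.5% of promoter summits. No other mRNA gene had a TSS within 50 kb of that of Dnm1l, and the nearest summit beyond was 55659 bp away with a score of 13.3. Of the 230-base promoter windows of the 10 genes, that of Dnm1l had the lowest GC content, 52.2%.

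The 4 receptors that bring Dnm1l to mitochondria all had promoter scores above 15. Mief1 (gene 239555; chr15:80234080-80253372, plus strand) had the highest, 32.5, at 77 bp upstream of the TSS. It was above 87.2% of promoter summits. A summit in intron 2 scored 8.50, the highest of the 7 summits in the gene bodies over 1 kb from a TSS. Mief2 (gene 237781; chr11:60728398-60732951, plus strand), the related receptor, scored 18.1 at 23 bp downstream in the 5′ UTR of exon 1. A further summit at −962 bp from the Mief2 TSS scored 7.05 and is only 173 bp from that of Flii, which runs in the opposite direction. An intron 2 summit scored 2.15. The start of the microRNA gene Mir5100 also lies within 1 kb of the Mief2 promoter.

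Mff (gene 75734; chr1:82724890-82752390, plus strand), the main receptor for Dnm1l in many cells, had its only summit 1 bp from a TSS, with a score of 15.4 that was higher than 64.1% of promoter summits. Its 13 curated mRNAs start at 2 annotated TSSs. The next summit was 107188 bp away. A noncoding gene, C430014B12Rik, also starts within 1 kb of the Mff promoter, and its part in the peak was not tested.

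Fis1 (gene 66437; chr5:136953275-136966234, plus strand) was the only one of the 10 genes with strong summits at 2 separate promoters. The summit at the first TSS lay 124 bp upstream with a score of 20.17, and the one at the second TSS, 8802 bp farther along the gene, lay 50 bp downstream with a score of 19.96. They ranked 2985 and 3113 among all summits. A weaker summit with a score of 5.56 lay in coding sequence of exon 5. The windows around both TSSs, chr5:136953075-136953304 and chr5:136961877-136962106 on the plus strand, are shown so that they can be compared.
Fis1 first TSS: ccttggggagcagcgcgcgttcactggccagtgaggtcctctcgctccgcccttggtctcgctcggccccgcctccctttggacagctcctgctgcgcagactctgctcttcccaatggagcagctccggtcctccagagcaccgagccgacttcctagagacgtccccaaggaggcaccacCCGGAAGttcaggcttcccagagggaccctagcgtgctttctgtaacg
Fis1 second TSS: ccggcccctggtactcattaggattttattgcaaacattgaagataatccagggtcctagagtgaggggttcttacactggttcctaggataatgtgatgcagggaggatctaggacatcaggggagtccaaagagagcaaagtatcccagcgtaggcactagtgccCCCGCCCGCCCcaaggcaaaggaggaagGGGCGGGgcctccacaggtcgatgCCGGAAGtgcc
Both held CCGGAAG once, in capitals. GGGCGGG was absent from the first window and matched at 3 places in the second, 2 of which overlap. The first window was richer in G and C, 64.8% against 55.7%.

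**Figure D2:**
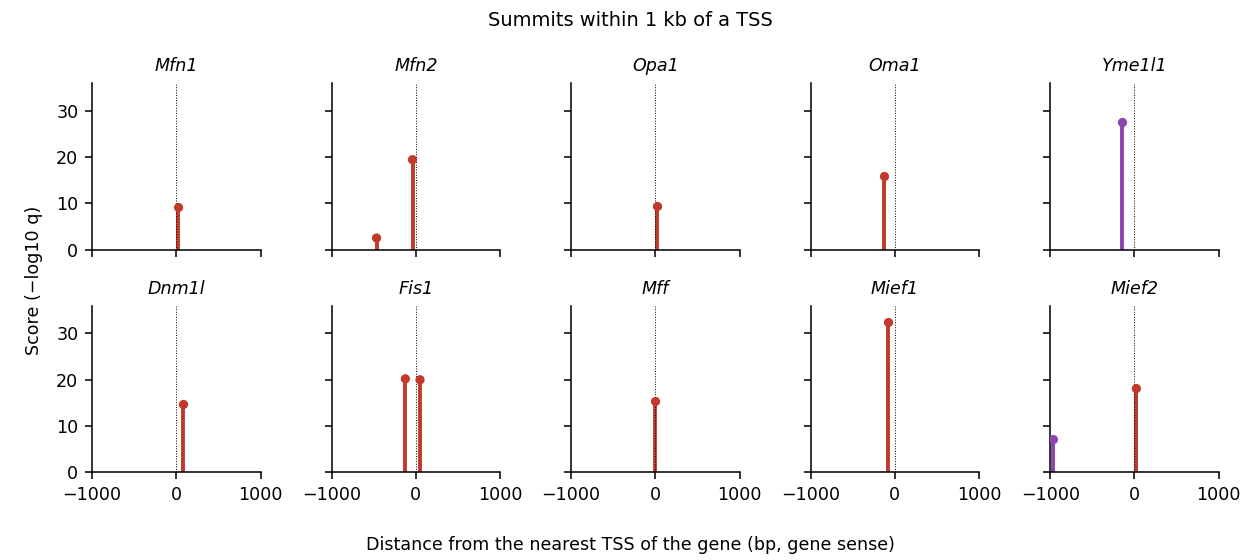
Summits within 1 kb of a TSS for each of the 10 genes, with the distance from the nearest TSS of that gene in bp (negative is upstream) and the score (−log10 q). Purple marks summits that are also within 1 kb of the TSS of another gene. The strongest summit of each gene lies within 152 bp of a TSS, and for Fis1 the 2 tall lines belong to different TSSs.

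The promoter summits sat close to the annotated starts. The strongest summit of each gene was 1 to 152 bp from a TSS, with a median of 58 bp, and 7 of the 10 were within 100 bp. Among all genes with a promoter summit the median was 142 bp and 38.2% were within 100 bp. For the 36 other mitochondrial dynamics genes with a promoter summit, described below, the median was 100 bp and 18 were within 100 bp. There were 5 summits upstream and 5 downstream of the TSS. None of the 10 lay over 100 bp downstream, where 26.9% of the 9485 genes with a promoter summit and 14 of the 36 other pathway genes had theirs. All 15 annotated TSSs of the 10 genes, counting the 4 genes with more than 1, had a summit within 1 kb. Much of this follows from the count of genes, since each gene already had a promoter summit. The share over all annotated TSSs was not computed.

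Away from their own promoters the loci held 35 further summits with a median score of 4.10, against 15.9 for the 13 summits within 1 kb of an own TSS. Of all genes, 72.5% had at least 1 summit in the body or within 50 kb, so that having one says little about a gene. A single summit was found at 4 loci, Oma1, Yme1l1, Dnm1l and Mff, and the median was 2.5. Over all genes whose promoter carried a summit the median was 4, and 17.5% of those genes had exactly 1. There were 7 summits inside the gene bodies over 1 kb from a TSS, spread over 5 genes, which is 1.93 per 100 kb of gene against 2.25 for all genes with a promoter summit. Of the 22 summits not within 1 kb of any TSS, 16 scored under 5 and their median was 3.53, against 4.16 for the 21798 such summits in the whole list. A score of at least 10 was reached by 14.4% of the latter.

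**Figure D3:**
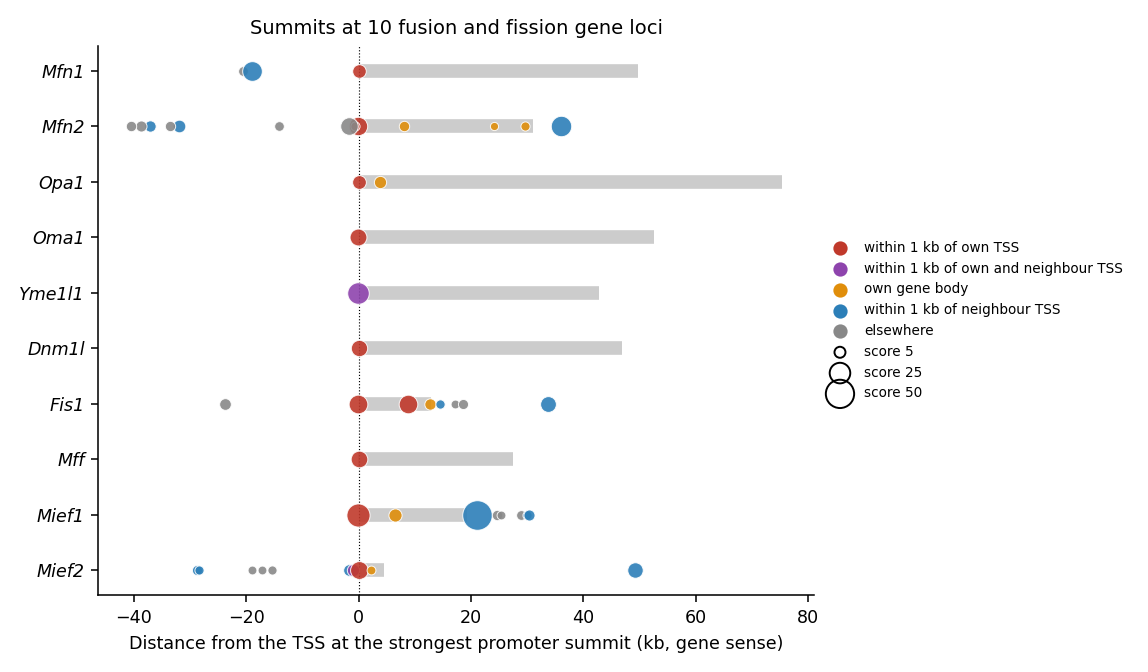
The 48 summits at the 10 loci, by distance in kb from the TSS at the strongest promoter summit, in the direction of the gene. Grey bars are gene bodies, the area of a point grows with the score and its colour gives the kind of site. The largest point belongs to Atf4, beside Mief1, and Oma1, Yme1l1, Dnm1l and Mff have 1 summit each.

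Many of the remaining summits belonged to neighbours. There were 20 other mRNA genes with a TSS within 50 kb, and 15 of them had a promoter summit, which is above the 45.2% of all genes. The 15 do not rest on 15 separate summits. A summit shared by neighbours, or by a member and a neighbour, is counted for each gene. Miip and Fv1, Plod3 and Znhit1, and Smcr8 and Top3a are such pairs of neighbours. The strongest site at any of the loci was the promoter of Atf4, a transcription factor of the mitochondrial and amino acid stress response, which lies 21104 bp from the Mief1 TSS and scored 54.7 at rank 428. Others were the shared summit of Miip and Fv1 near Mfn2 (24.6), Plod3 and Znhit1 near Fis1 (13.4), and Smcr8 and Top3a near Mief2 (12.8). Lower scores were found at Cldn15 beside Fis1 (2.69), Llgl1 beside Mief2 (3.75), Rps19bp1 beside Mief1 (5.07) and Plod1 and 2510039O18Rik beside Mfn2 (7.58 and 5.46). Summits lay closest to the 50 kb limit at Mief2, whose farthest counted summit was 49100 bp away with a score of 12.8 and whose nearest uncounted one was 51021 bp away with a score of 4.16.

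The promoter windows were searched for 13 short motifs on both strands. GGGCGGG was found in 6 of the 10, Opa1, Oma1, Yme1l1, Dnm1l, Mief1 and Mief2, against 49.9% of the 9485 genes with a promoter summit and 21.5% of the 11515 without. CCGGAAG was found in 4, Mfn1, Yme1l1, Fis1 and Mief1, against 19.2% and 4.33%. With 10 windows these counts are a description only. The nearest CCGGAAG match lay 12 bp from the summit in Mief1, 64 bp in Mfn1, 79 bp in Yme1l1 and 106 bp in Fis1. The CRE core TGACG, which is also contained in the full CRE TGACGTCA, was present in 5 (31.4% and 13.3%), and the NFY motif CCAAT in 5 (35.7% and 31.9%). The Mfn2 window held neither the SP/KLF nor the ETS motif. There TGACG occurred at 2 places, the nearer 13 bp from the summit. TGACG was also the only motif found in Mff, 45 bp from the summit.

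The other motifs were rarer. GCATGCGC, the motif of the mitochondrial gene regulator NRF1, was found in Opa1 alone (5.63% of genes with a promoter summit and 1.42% of those without). CACGTG, the E-box, was found in Mief2 alone (9.57% and 4.84%), 42 bp from the summit, and CCCNNGGG, an EBF motif, in Oma1 alone (15.5% and 11.5%). The full CRE, AAGATGG of YY1, AAGGTCA of the ERR receptors, TTGCGCAA of C/EBP, TGANTCA of AP-1 and TTGGCA of NFI were not present in any of the 10 windows. GC content ran from 52.2% in Dnm1l to 72.6% in Mief1, with a median of 57.0% and 16 CpG pairs. The medians were 63.0% and 18 over genes whose promoter carried a summit, and 51.7% and 4 over the rest.

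**Figure D4:**
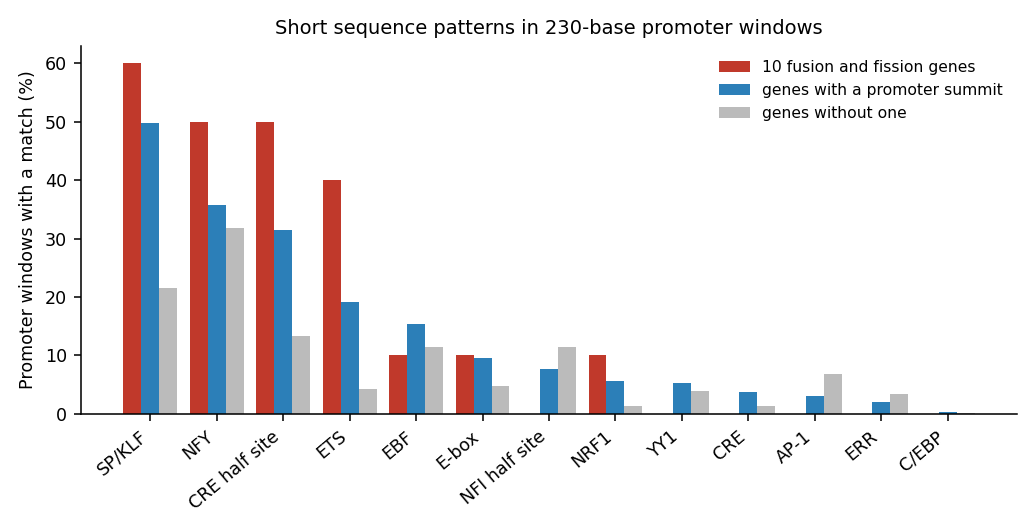
Percent of 230-base promoter windows with at least 1 match to each of 13 short motifs, on either strand, in the 10 fusion and fission genes (red), the 9485 genes with a promoter summit (blue) and the 11515 genes without one (grey). SP/KLF is in 6 and ETS in 4 of the 10 windows, and 6 motifs are in none.

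Of 43 other genes of mitochondrial dynamics, 36 or 83.7% had a promoter summit, against 45.2% of all genes. The median score of the 36 was 16.4, and 24 reached a score of 10, as 23.5% of all genes did. Among fusion helpers, such as the prohibitins, 7 of 8 had one. Among fission helpers it was 6 of 10, the closest of these lists to the share of all genes. The ubiquitin ligases and quality control genes had 6 of 7 but a lower median score of 8.97. Other inner membrane proteases had 5 of 5, genes of MICOS and cristae, the complex that holds cristae junctions in place, 8 of 9, and genes for transport along microtubules 4 of 4. The highest scores were those of Immt (77.7), the core subunit of MICOS, Miga2 (42.8), Htra2 (36.7), a protease of the intermembrane space, and the MICOS subunits Chchd3 and Micos13 (33.3 each), all above Mief1.

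No promoter summit was found for Miga1, Mtfr2, Gdap1, Spire1, Pgam5, Fundc1 and Apool. For Miga1, the paralog of Miga2, the nearest summit was 5969 bp from a TSS. For the other 6 it was between 30555 bp (Spire1) and 488239 bp (Gdap1) away. At an unknown depth, and with the MACS2 control not known, this does not show that these promoters were closed.

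**Figure D5:**
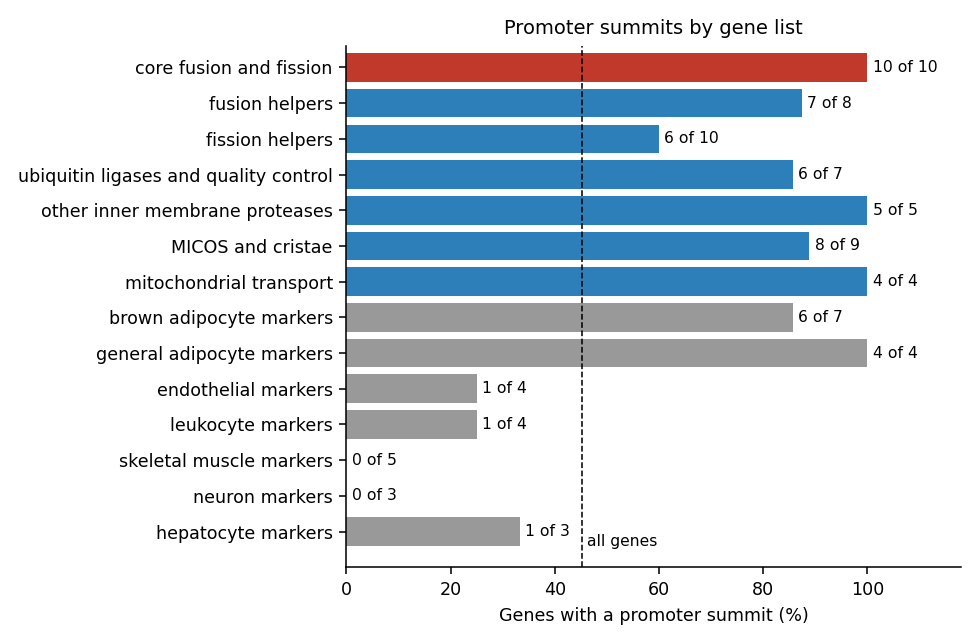
Percent of genes with a promoter summit in the core fusion and fission genes (red), lists of other mitochondrial dynamics genes (blue) and cell type markers (grey), with counts beside the bars. The dashed line is the 45.2% of all genes. Fission helpers have the lowest share of the pathway lists, 6 of 10, and muscle and neuron markers have none.

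Adipocyte markers had promoter summits more often than markers of other cell types. They were present for 6 of 7 brown and 4 of 4 general adipocyte markers, against 45.2% of all genes. Brown marker scores were 61.5 for Cidea, 33.7 for Ucp1, 20.8 for Ppargc1a, 9.785 for Elovl3, 8.65 for Prdm16 and 6.02 for Dio2. A score of at least 10 was reached by 3 of the 7 brown and 3 of the 4 general markers, and Adipoq scored 6.02. Promoter summits were present for 1 of 4 endothelial markers (Cdh5, 2.59) and 1 of 4 leukocyte markers (Cd68, 2.15). Of the hepatocyte markers 1 of 3 had one (Apoa2, 8.94), with a score above those of Prdm16, Dio2 and Adipoq. The counts were 0 of 5 for skeletal muscle and 0 of 3 for neuron markers. Adrb3 was the brown adipocyte marker without a promoter summit, and its nearest summit was 1479 bp from a TSS. Dot1l itself had a promoter summit with a score of 10.9, which cannot check the deletion because the libraries are not separate. Fewer cells of a type and a less open site per cell cannot be told apart in bulk tissue. Scores were coarse, with 2606 distinct values over the list and up to 1942 summits sharing one, so that small differences such as that between Mfn1 and Opa1 carry little weight. Bases masked as repeats in the reference lay under 5 of the 48 summits, 10.4%, against 12.9% of all.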

How the data were processed

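ATAC-seq libraries of BAT nuclei, 2 WT and 2 Dot1L-BKO, each from a separate mouse, were used. The labels' processing notes name bcl2fastq 2.2, cutadapt 1.2.1, BWA and MACS2 2.1.1. The authors aligned reads to mm10 in Partek Flow and called peaks with the ATAC settings of MACS2, keeping those at q 0.05 or better and at least 2.0-fold enriched. The deposited values are the −log10 q-value score of each summit, in 1 list for the 4 libraries. Correction for the Tn5 offset and the treatment of multimapped and mitochondrial reads are not given in the sources used here. The 2 RNA-seq libraries per genotype were not analysed here. Depth is unknown, and no test was made.

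Positions were compared with curated RefSeq mRNAs of GRCm38 (the same build) on chromosomes 1 to 19, X and Y, 21000 genes with 25999 TSSs. A promoter summit is within 1 kb of a TSS, and the highest score counts. Motifs were matched exactly in 230-base windows at the TSS nearest the strongest summit, or at the RefSeq Select start. The 10 members, neighbours with a TSS within 1 kb of a summit at their loci, and of other pathway genes the 5 highest and all without a promoter summit were named, with Dot1l and the marker lists once. The neighbour noncoding genes and the motif spacing were added after values were seen. Members and lists were chosen with earlier results of these data known. Alternatives changed the score minimum, the windows, the transcripts, merging and how summits are given to genes. On simulated data, 121 of 121 promoter summits among 200 placed summits were recovered. These were placed at genes with 1 TSS and no other TSS nearby. The result checks the assignment code only and does not cover shared promoters or genes with several TSSs. Scripts ran in Python 3.11.15 with pandas 2.3.3, numpy 2.4.6, pysam 0.24.0, scipy 1.17.1 and matplotlib 3.10.9.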

Additional observations from a re-analysis of the deposited data

How the results depend on the processing

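All 10 genes kept a promoter summit with a score of at least 5, with the other promoter windows, with predicted mRNAs and with merged summits, and a score of at least 10 left 8, without Mfn1 and Opa1. The share of all genes with a promoter summit moved with these settings, from 45.2% as reported to 36.1% for a score of at least 5, 23.5% for at least 10, 41.5% within 500 bp, 50.03% within 5 kb and 35.2% for the window that reached 1 kb upstream but only 100 bp downstream. That minimum raised the median promoter score from 17.0 to 18.8, since the lowest scores were left out. The number of summits at the loci moved most. It was 48 as reported, 27 with a score of at least 5, 15 with a score of at least 10, 25 within 10 kb of a TSS or in the gene body and 18 where the nearest TSS had to belong to one of the 10 genes, each of which counts fewer summits by construction. It was 49 with predicted mRNAs, 46 with summits within 500 bp merged and 58 within 100 kb. The other pathway genes with a promoter summit numbered 36 as reported and 24 to 36 under the alternatives, with 24 both for a score of at least 10 and for the window of 1 kb upstream to 100 bp downstream, where the share of all genes also fell. No paired analysis was possible because single libraries have no values in the deposited file, and for the same reason no replicate could be left out. Depth limits the absence of a summit, which may be a peak too weak to be called. Scores carry no error between mice.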
